A study of Mus musculus with 26 samples.

Results

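The 10 genes described here are Cd68, Adgre1, Mrc1, Lyve1, Cd163, Csf1r, C1qa, C1qb, C1qc and F13a1, markers of tissue macrophages, measured by RNA sequencing in mouse mesenteric arteries. They were chosen by symbol, and all 10 were found among the 57010 gene identifiers of the counts table, 9 under the symbol given and Adgre1 under its older name Emr1. All 10 are also among the 21031 identifiers of the normalized table. The arteries, which feed the gut, came from male mice aged 8 weeks in 26 libraries. The study compared 4 changes of pannexin 1, a membrane channel that releases ATP, with a control group for each. The global line had 3 wild-type (WT) and 3 Panx1 KO libraries. The Y198F line had 3 controls (genotype Y198F-/-) and 3 mutants (Y198F+/+), in which a tyrosine of the channel is replaced by phenylalanine. The S205A line had 4 controls (S205A-/-) and 4 mutants (S205A+/+), with serine replaced by alanine. The Y308F line had 3 controls (Y308F-/-) and 3 mutants (Y308F+/+), again with tyrosine replaced by phenylalanine. No treatment is named for any group, and whether the libraries of a group came from separate animals is not stated beyond a number of 3 vascular trees for each genotype, fewer than the 4 libraries in either S205A group, so p-values measure the spread between these libraries.

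Macrophages live in the outer coat of arteries and in the fat and connective tissue around them, where they clear dead cells and debris and take part in defence and repair. They depend on signals through the receptor encoded by Csf1r, whose ligands are colony-stimulating factor 1 and interleukin 34. Macrophages of the vessel wall that carry the hyaluronan receptor Lyve1 and the mannose receptor Mrc1 are a known resident population, and macrophages are a main source of C1q, the protein that opens the classical complement pathway.

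On the build GRCm39 the 3 C1q genes lie side by side on the minus strand of chromosome 4, C1qb at chr4:136606009-136613511, C1qc at chr4:136616466-136620376 and C1qa at chr4:136623223-136626161. Cd68 lies at chr11:69555037-69557067, Adgre1 at chr17:57665573-57790527, Mrc1 at chr2:14234151-14336926, Lyve1 at chr7:110448585-110462460, Cd163 at chr6:124281606-124307560 and F13a1 at chr13:37051152-37234277. All 10 are annotated as protein coding. Exons of Csf1r share 1461 bases with Mir6983 or Hmgxb3. Those of C1qc and C1qb share 247 and 61 bases with Gm69251, and those of F13a1 share 74 bases with Gm49144 or Gm30489. Whether counting used the strand is not given in the sources used here, so how reads of the shared bases entered these 4 levels is not known.

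Promoter sequence from RefSeq (GRCm38.p6, 250 bases before to 50 bases after a start site) was found for 6 of the 10 genes, in 7 windows, and not for Adgre1, Lyve1, Csf1r and C1qa. The windows are shown because levels of these genes were correlated between libraries, as described below. They were searched on both strands for GAGGAA, the core that the myeloid factor PU.1 is known to bind, which reads TTCCTC on the other strand. GAGGAA was present in 6 of the 7 windows, which belong to 5 of the 6 genes, against 28.3% of all 32851 promoter windows of the same length. Capitals mark it in the following windows, of the scavenger receptor Mrc1, the neighbours C1qb and C1qc, and Cd163, whose window does not hold these letters.
Mrc1, chr2:14229164-14229463, plus strand: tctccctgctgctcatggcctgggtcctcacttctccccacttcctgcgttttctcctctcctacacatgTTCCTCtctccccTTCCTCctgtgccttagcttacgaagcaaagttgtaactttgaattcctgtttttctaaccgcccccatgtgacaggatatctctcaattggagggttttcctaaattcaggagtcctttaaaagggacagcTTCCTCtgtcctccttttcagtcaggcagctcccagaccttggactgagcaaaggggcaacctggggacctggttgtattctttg
C1qb, chr4:136886151-136886450, minus strand: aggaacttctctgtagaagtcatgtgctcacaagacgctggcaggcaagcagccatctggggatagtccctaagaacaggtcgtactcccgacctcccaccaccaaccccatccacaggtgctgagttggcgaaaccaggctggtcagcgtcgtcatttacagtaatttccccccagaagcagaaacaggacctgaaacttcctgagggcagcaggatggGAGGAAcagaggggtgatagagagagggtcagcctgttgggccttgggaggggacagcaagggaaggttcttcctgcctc
C1qc, chr4:136892865-136893164, minus strand: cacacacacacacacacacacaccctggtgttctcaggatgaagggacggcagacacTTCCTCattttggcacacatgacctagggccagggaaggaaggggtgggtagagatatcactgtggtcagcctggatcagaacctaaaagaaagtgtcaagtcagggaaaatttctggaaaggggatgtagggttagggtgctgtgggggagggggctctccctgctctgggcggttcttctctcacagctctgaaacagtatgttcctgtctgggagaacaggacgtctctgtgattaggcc
Cd163, chr6:124304401-124304700, plus strand: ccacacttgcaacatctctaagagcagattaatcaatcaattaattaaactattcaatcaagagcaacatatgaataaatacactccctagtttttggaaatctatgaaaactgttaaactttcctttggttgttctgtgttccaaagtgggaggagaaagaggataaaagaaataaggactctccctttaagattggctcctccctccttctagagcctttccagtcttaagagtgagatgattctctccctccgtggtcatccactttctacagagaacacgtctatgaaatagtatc
The Mrc1 window held GAGGAA in 3 places and the C1qb and C1qc windows in 1 place each. Cd68 held it in 2 places. The F13a1 windows held it in 2 places and in 1. TGCTGA, a half-site of MAF factors, was searched on both strands as a separate motif and was found in 1 of the 7 windows, that of C1qb, against 19.5% of all windows. A match of letters is a description and no measure of binding, and its part in the correlation between libraries was not tested.

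Library totals ran from 14.9 to 23.6 mega-counts, and 3 counts, taken as the floor, corresponded to 0.127 to 0.196 CPM, the usual unit of counts scaled to library size. All levels below are CPM from normalized library sizes. Panx1 was 4.96, 3.38 and 4.89 CPM in WT (4.41 ± 0.891, SD) and 0.582, 0.944 and 1.36 CPM in Panx1 KO (0.961 ± 0.388). The names of 9 libraries hold a number that starts with 22, and these are referred to as the 22 series. They comprise all 3 Y198F libraries, replicates 1 to 3 of the S205A controls and replicates 2 to 4 of S205A. Every macrophage gene had a lower mean in these 9 libraries than in the other 17. Lyve1 averaged 12.6 ± 10.05 CPM in the 22 series and 36.7 ± 13.9 CPM in the others (SD). Mrc1 averaged 3.87 ± 2.89 and 9.38 ± 5.67 CPM. The series and the Y198F mutation cannot be told apart within the Y198F comparison, because all 3 mutants and none of the controls belong to it.

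The macrophage genes were minor transcripts of the artery that differed widely from one library to the next. Per kilobase of the canonical transcript, C1qa (7.12 CPM per kb) and Lyve1 (6.86 CPM per kb) had the highest mean levels over the 26 libraries. C1qc (2.88), F13a1 (2.60), C1qb (2.34), Cd68 (1.72), Mrc1 (1.36), Csf1r (1.36), Cd163 (1.17) and Adgre1 (0.505) followed on the same scale. Their summed level ran from 14.1 CPM in S205A replicate 4 to 183.5 CPM in Panx1 KO replicate 3, a 12.99-fold range. Markers of smooth muscle, the main cell type of the artery, summed to 19610 to 41513 CPM, a 2.12-fold range. In bulk arteries, fewer cells of a type and less RNA per cell cannot be told apart.

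**Figure D1:**
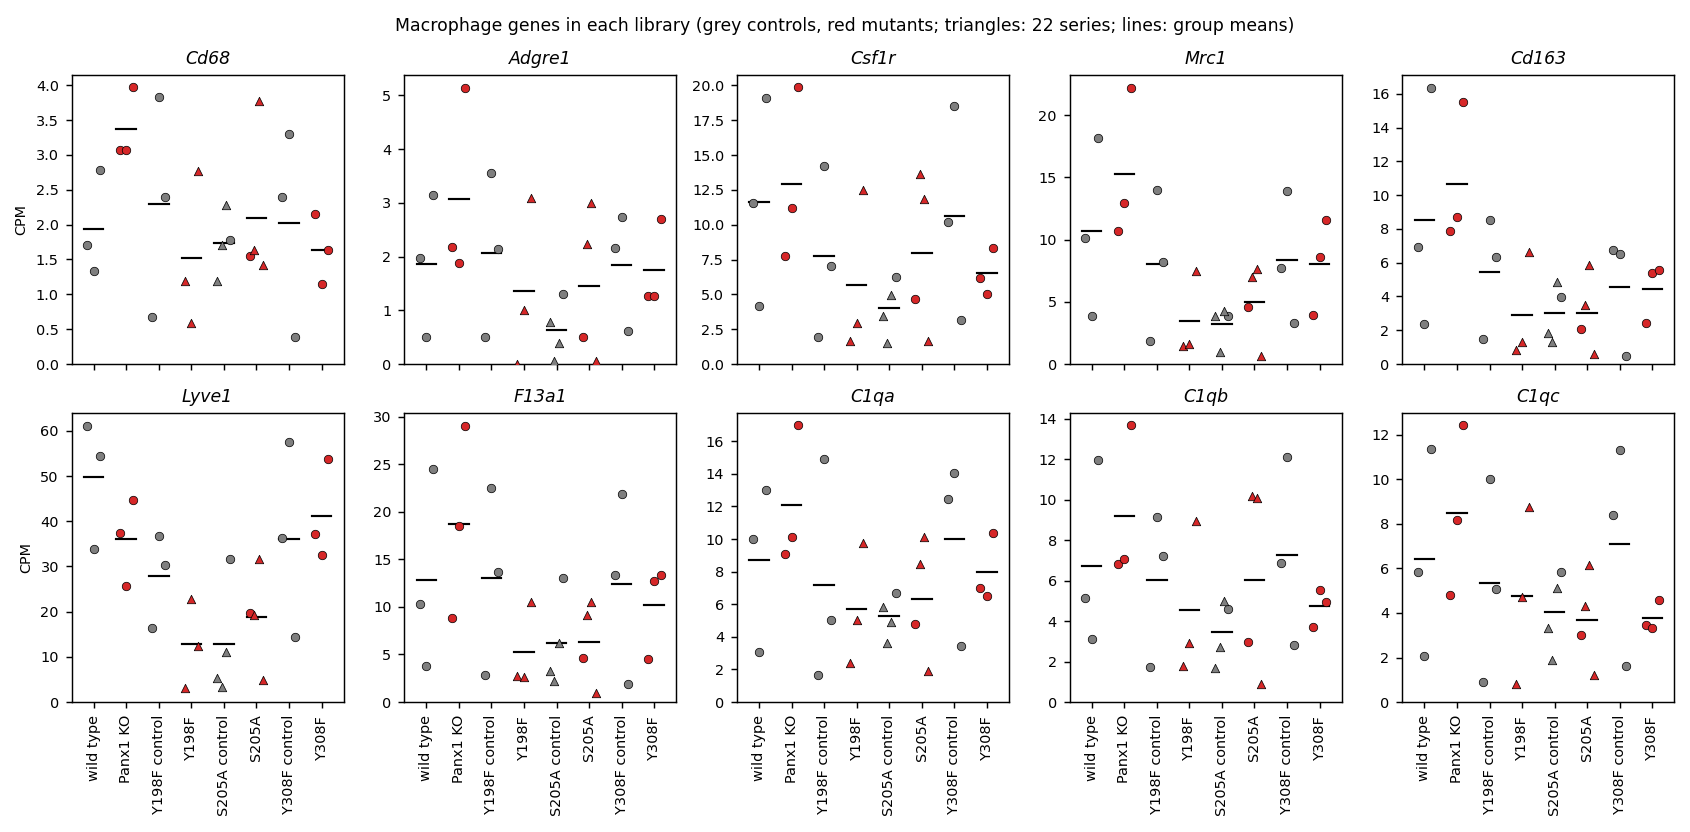
CPM of each of the 10 macrophage genes (vertical axis, linear) in the 26 libraries, by group; points are libraries, lines are group means, grey marks controls, red marks mutants and triangles mark the 22 series. Libraries of one group are spread widely, and groups next to each other in the order of their means overlap.

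Csf1r, the receptor that macrophages need for survival, ranged 12.99-fold over the libraries. The gene lies at chr18:61229714-61266535. Its mean level in CPM was, from high to low, 12.9 ± 6.25 in Panx1 KO, 11.6 ± 7.46 in wild type, 10.6 ± 7.71 in Y308F controls, 7.94 ± 5.70 in S205A, 7.76 ± 6.17 in Y198F controls, 6.52 ± 1.68 in Y308F, 5.69 ± 5.95 in Y198F and 4.04 ± 2.03 in S205A controls (SD, n = 3, or 4 in the S205A line). Its ligands did not vary as widely. Csf1, the growth factor itself, stayed between 87.5 and 129 CPM, a 1.47-fold range, and Il34, the second ligand, between 6.47 and 18.3 CPM. After each group's mean was subtracted, the levels of Csf1r and Csf1 on the log2 CPM scale had a Pearson r of 0.13 (Spearman rho 0.12, n = 26 libraries). The value was 0.31 within the 9 libraries of the 22 series and -0.09 within the other 17.

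Cd68, a glycoprotein of lysosomes that is used to mark macrophages in general, and Adgre1, which encodes the F4/80 antigen of mouse macrophages, had the fewest counts of the 10. Cd68 averaged 3.37 ± 0.522 in Panx1 KO, 2.30 ± 1.58 in Y198F controls, 2.09 ± 1.12 in S205A, 2.03 ± 1.49 in Y308F controls, 1.94 ± 0.750 in wild type, 1.74 ± 0.443 in S205A controls, 1.64 ± 0.506 in Y308F and 1.52 ± 1.13 in Y198F. Adgre1 averaged 3.06 ± 1.80 in Panx1 KO, 2.06 ± 1.52 in Y198F controls, 1.87 ± 1.32 in wild type, 1.83 ± 1.10 in Y308F controls, 1.74 ± 0.827 in Y308F, 1.44 ± 1.39 in S205A, 1.37 ± 1.58 in Y198F and 0.630 ± 0.531 in S205A controls. Adgre1 had 0 counts in Y198F replicate 1, which allows up to the floor of 3 counts, and 1 count in each of S205A control replicate 2 and S205A replicate 4.

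Mrc1, the mannose receptor, and Cd163, the receptor that takes up haemoglobin bound to haptoglobin, had wide ranges of 34.4-fold and 33.0-fold. Mrc1 averaged 15.3 ± 6.09 in Panx1 KO, 10.7 ± 7.18 in wild type, 8.32 ± 5.32 in Y308F controls, 8.02 ± 3.84 in Y308F, 8.01 ± 6.06 in Y198F controls, 4.96 ± 3.16 in S205A, 3.49 ± 3.44 in Y198F and 3.23 ± 1.504 in S205A controls. Cd163 averaged 10.7 ± 4.18 in Panx1 KO, 8.55 ± 7.12 in wild type, 5.45 ± 3.63 in Y198F controls, 4.59 ± 3.54 in Y308F controls, 4.46 ± 1.77 in Y308F, 3.00 ± 2.24 in S205A, 3.00 ± 1.72 in S205A controls and 2.92 ± 3.21 in Y198F. F13a1, the catalytic subunit of clotting factor XIII, ranged 32.1-fold and averaged 18.8 ± 10.1 in Panx1 KO, 13.01 ± 9.84 in Y198F controls, 12.9 ± 10.6 in wild type, 12.4 ± 10.01 in Y308F controls, 10.2 ± 4.93 in Y308F, 6.28 ± 4.36 in S205A, 6.16 ± 4.86 in S205A controls and 5.29 ± 4.51 in Y198F.

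Lyve1, the hyaluronan receptor that both resident macrophages and lymphatic endothelium express, averaged 49.8 ± 14.2 in wild type, 41.2 ± 11.1 in Y308F, 36.1 ± 21.6 in Y308F controls, 36.0 ± 9.61 in Panx1 KO, 27.9 ± 10.4 in Y198F controls, 18.9 ± 11.0 in S205A, 12.8 ± 13.03 in S205A controls and 12.8 ± 9.80 in Y198F. It was the only one of the 10 whose highest group mean was in WT. The other 9 had theirs in Panx1 KO. The lowest group mean fell in S205A controls for 5 genes, in Y198F for 4 and in S205A for 1.

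The C1q chains, which assemble into one protein, ranged 10.1-fold (C1qa), 15.2-fold (C1qb) and 15.2-fold (C1qc). C1qa averaged 12.1 ± 4.30 in Panx1 KO, 9.99 ± 5.75 in Y308F controls, 8.70 ± 5.11 in wild type, 7.96 ± 2.11 in Y308F, 7.21 ± 6.88 in Y198F controls, 6.32 ± 3.67 in S205A, 5.73 ± 3.73 in Y198F and 5.27 ± 1.31 in S205A controls. C1qb averaged 9.20 ± 3.88 in Panx1 KO, 7.26 ± 4.66 in Y308F controls, 6.75 ± 4.64 in wild type, 6.05 ± 3.86 in Y198F controls, 6.04 ± 4.83 in S205A, 4.73 ± 0.921 in Y308F, 4.55 ± 3.85 in Y198F and 3.49 ± 1.57 in S205A controls. C1qc averaged 8.47 ± 3.81 in Panx1 KO, 7.10 ± 4.99 in Y308F controls, 6.42 ± 4.68 in wild type, 5.34 ± 4.57 in Y198F controls, 4.76 ± 3.96 in Y198F, 4.03 ± 1.78 in S205A controls, 3.80 ± 0.682 in Y308F and 3.68 ± 2.09 in S205A. For each of the 10 genes, all 7 pairs of neighbours in the order of group means overlapped in their library values. The order therefore separates no neighbouring groups.

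Within a group, 1 library was usually high for nearly all of the 10 genes and another low for nearly all. In 7 of the 8 groups a single library was the highest for at least 8 of them, and in 6 of the 8 a single library was the lowest for at least 8. Y198F control replicate 2 was the highest of its group for 10 of 10 and replicate 1 the lowest for 10 of 10. Of all 18715 genes tested in the 8 groups together, 38% were highest in that replicate 2 and 35.7% lowest in that replicate 1. Panx1 KO replicate 3 was the highest of its group for 10 of 10, against 33.1% of all genes. S205A replicate 4 was the lowest of its group for 10 of 10, against 25.3%. The spread was larger than for most genes of like level. The biological coefficient of variation, edgeR's measure of the spread between replicates, was 0.505 (Cd68) to 0.905 (Adgre1), against a median of 0.238 over the 18715 genes. Among genes of like level, the 10 stood between percentile 77.3 (Cd68) and percentile 99.1 (Lyve1).

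**Figure D2:**
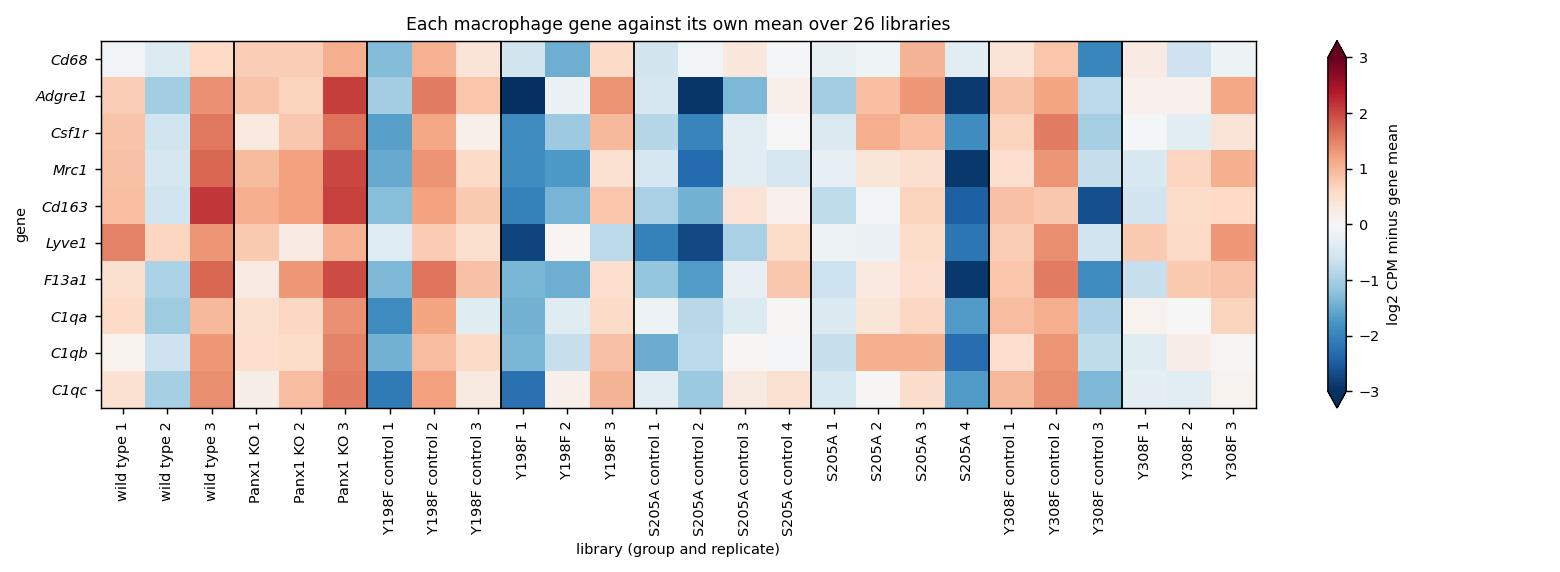
Level of each macrophage gene (rows) in each library (columns, by group and replicate) as log2 CPM minus the gene's mean over the 26 libraries; red is above and blue below that mean, and the colour scale ends at 3 in either direction. Columns tend to be of one colour, such as Panx1 KO 3 above and S205A 4 below the mean for all 10 genes, with mixed columns such as Y198F 2.

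The genes moved together between libraries of the same group. After group means were subtracted, Pearson's r of log2 CPM over the 26 libraries was 0.43 to 0.95 for the 45 pairs, with a median of 0.87. Without the 2 libraries farthest from the first gene's median the 45 values ran from 0.31 to 0.94. They ran from 0.23 to 0.97 within the 22 series (n = 9) and from 0.65 to 0.98 within the other libraries (n = 17). Values of 1 library share its depth and its mix of tissues, so these correlations are descriptions. C1qa and C1qc had an r of 0.95 (rho 0.93), and it was 0.94 without the 2 libraries farthest from the C1qa median. Cd163 and F13a1 also had an r of 0.95 (rho 0.93), and 0.94 without the 2 farthest. F13a1 is also a platelet gene, and its r with the 5 platelet genes was 0.76 for Pf4, 0.44 for Gp9, 0.22 for Ppbp, 0.02 for Itga2b and -0.08 for Gp1ba. The part of platelets in the F13a1 level was not tested. Cd68 and Lyve1 were the pair with the lowest r, 0.43, which was 0.31 without the 2 libraries farthest from the Cd68 median, 0.23 within the 22 series and 0.65 within the others.

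Lyve1 was positively correlated with the other macrophage genes and with genes of lymphatic vessels. Its r with the other 9 ran from 0.43 (Cd68) to 0.82 (Adgre1), with a median of 0.71. Its r was 0.91 with Mmrn1, a protein of lymphatic endothelium (rho 0.92), 0.91 with Reln, 0.89 with the lymphatic chemokine Ccl21a and 0.79 with Prox1, the master factor of lymphatic identity. It was 0.68 with Mrc1 (rho 0.69). Leaving out the 2 libraries farthest from the Lyve1 median gave 0.89 for Mmrn1 and 0.59 for Mrc1. For these 2 genes the order was the same within the 22 series (0.92 for Mmrn1 and 0.69 for Mrc1, n = 9) and within the other libraries (0.93 and 0.68, n = 17). Mrc1 itself had an r of 0.66 with Mmrn1. Lyve1 had lower values with Flt4 (0.29) and Pdpn (0.48), which complete the list of 6 lymphatic genes. For both the series differed, with 0.11 for Flt4 and 0.16 for Pdpn within the 22 series and 0.68 and 0.85 within the other libraries. Whether these correlations differ was not tested.

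**Figure D3:**
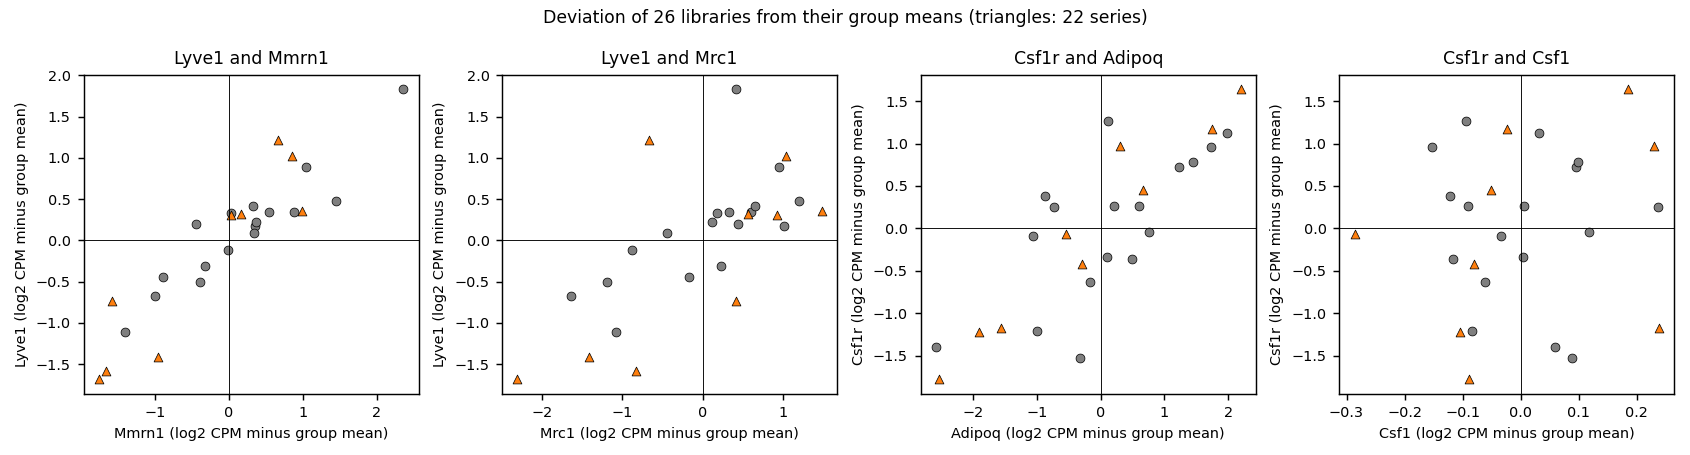
Log2 CPM minus the mean of the library's group, for Lyve1 against Mmrn1, Lyve1 against Mrc1, Csf1r against Adipoq and Csf1r against Csf1; each point is 1 of 26 libraries and triangles mark the 22 series. Points lie closest to a line for Lyve1 with Mmrn1 (r = 0.91), and show no line for Csf1r with its ligand gene Csf1 (r = 0.13).

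The 10 other genes most like the mean of the macrophage genes were found by Pearson's r of log2 CPM over 26 libraries, after the mean of each library series was subtracted and among genes with a mean log2 CPM of at least 1. They were Mgl2 (r = 0.94), Lyz2 (0.93), Clec10a (0.92), Ccl9 (0.90), Ccl6 (0.88), Ano1 (0.85), Ebf2 (0.85), Efemp1 (0.84), Retnla (0.84) and Ctss (0.83). Lyz2 is lysozyme of myeloid cells, Mgl2 and Clec10a are galactose-type lectins of macrophages and dendritic cells, Ccl9 and Ccl6 are chemokines, and Ctss is a lysosomal protease. Lyz2 ran from 2.58 to 65.6 CPM, a 25.4-fold range. Ebf2 and Efemp1 are known from mesenchymal and fibroblast cells, and Ano1 from smooth muscle and pacemaker cells.

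Most genes of the related lists were positively correlated with the macrophage genes between libraries. All 13 pan-myeloid genes had a positive r with the mean of the 10, from 0.51 to 0.96 (Lyz2). Of 15 resident macrophage genes 13 were positive, with a median of 0.62. The 2 negative ones were Mertk, a receptor for dying cells (-0.45 at a mean level of 133.8 CPM), and Stab1, a scavenger receptor also found on endothelium (-0.02 at 222.9 CPM). Of 11 genes for clearing dying cells 7 were positive, from -0.51 to 0.86. Of 10 monocyte and MHC class II genes 9 were positive, with Ly6c2, a monocyte surface gene, at -0.18. Of 10 complement genes 9 were positive, with a median of 0.65. The complement proteases C1ra and C1s1, which bind C1q, ranged 1.81-fold and 1.92-fold while C1qa ranged 10.1-fold, and C1qa had an r of 0.45 with C1ra and -0.14 with C1s1. Of 15 activation genes 14 were positive, with a median of 0.45. Il1b, Tnf and Il6 peaked at 0.267, 0.463 and 0.749 CPM in any library, whereas Retnla, a gene of alternative activation, averaged 11.2 CPM.

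Markers of fat and lymphatic vessels were also higher in libraries in which the macrophage genes were high. All 6 white adipocyte genes had a positive r with the mean of the 10, from 0.72 to 0.82 (Adipoq). Their summed level was 325.8 to 2034 CPM in WT, 105.5 to 529.9 in Panx1 KO, 214.4 to 309.7 in Y198F controls and 142.6 to 1493 in Y198F. It was 106.5 to 521.3 CPM in S205A controls, 27.0 to 414.9 in S205A, 63.4 to 1120 in Y308F controls and 193.5 to 563.8 in Y308F. The 6 lymphatic genes were positive too, from 0.25 to 0.79. They summed to 228.8 to 304.6 CPM in WT, 108.3 to 217.96 in Panx1 KO, 112.3 to 259.9 in Y198F controls and 57.7 to 112.4 in Y198F. They summed to 30.2 to 163.99 CPM in S205A controls, 62.8 to 172.4 in S205A, 134.6 to 428.9 in Y308F controls and 184.3 to 212.1 in Y308F. The 6 smooth muscle genes were all negative, from -0.55 (Cnn1) to -0.34. Csf1r and Adipoq had an r of 0.83 (rho 0.80), with 0.97 within the 22 series and 0.69 within the others. Of the other lists, all but those of endothelium and B cells had more positive than negative genes. All 6 mast cell genes were positive, from 0.28 to 0.73 (Tpsb2), as were all 5 red cell genes, from 0.42 to 0.49, and all 5 genes of mesothelium, from 0.30 to 0.61 (Wt1). Of 6 fibroblast genes 5 were positive, up to 0.54 (Dpt), and the most abundant, Col1a1, had -0.09. Of 6 dendritic cell genes 5 were positive, up to 0.83 (Cd209a), and the most abundant, Zbtb46, had -0.06. Of 6 large peritoneal macrophage genes 4 were positive, up to 0.65 (Prg4), and Icam2 had -0.03. Of 5 platelet genes 3 were positive, up to 0.87 (Pf4) with a median of 0.14, and of 5 T cell genes 4, up to 0.40. Of 6 endothelial genes 2 were positive, with Kdr at 0.78, Pecam1 at -0.07 and a median of -0.04. The neutrophil genes Ly6g and Retnlg were listed at 0 in all 26 libraries, and the other 4 had values of -0.08 to 0.73 (Mmp9). The 5 B cell genes had values of -0.11 to 0.17. The part of these cell types in the macrophage levels was not tested.

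**Figure D4:**
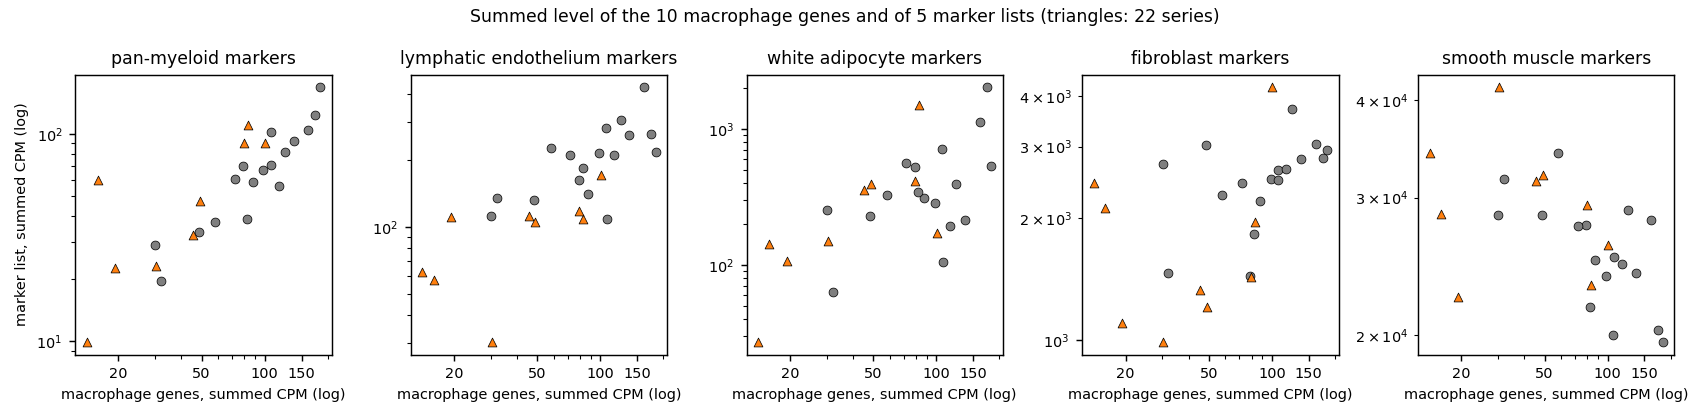
Summed CPM of 5 marker lists (vertical axes, log scale) against summed CPM of the 10 macrophage genes (horizontal axis, log scale) in 26 libraries; triangles mark the 22 series. Pan-myeloid, lymphatic and adipocyte markers are higher where the macrophage genes are higher, and smooth muscle markers are lower there.

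The comparison of Panx1 KO with WT asks what loss of the channel does to these genes. None of the 10 passed an edgeR adjusted p of 0.05, where 0.0309% of the 16193 genes tested did, and DESeq2 also called 0 of the 10. In this and each later comparison all 10 passed the filter on low counts. The log2 fold change was positive for 9 and negative for Lyve1, with a median of 0.48 against 0.01 over all genes, of which 50.8% were positive. Cd68 was 1.71, 1.33 and 2.78 CPM in the WT libraries and 3.07, 3.07 and 3.97 CPM in Panx1 KO. The groups did not overlap, which held for 18.8% of all genes. Its log2 fold change was 0.82 (SE 0.359, 95% interval 0.01 to 1.63, edgeR adjusted p = 0.443), with an unadjusted p of 0.0485 by edgeR, the only one of the 10 under 0.05 where 11.2% of all genes were. By an exact permutation test (two-sided) p was 0.1, and 3 against 3 allows no smaller value.

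Lyve1 was 61.2, 33.9 and 54.4 CPM in WT and 37.5, 25.7 and 44.8 CPM in Panx1 KO. The groups overlapped, all 3 Panx1 KO libraries lay below the WT mean, and the log2 fold change was -0.45 (SE 0.272, 95% interval -1.09 to 0.20, edgeR adjusted p = 0.597). Mrc1 was 10.1, 3.83 and 18.2 CPM in WT and 10.7, 12.9 and 22.2 in Panx1 KO, and its log2 fold change was 0.53 (SE 0.589, 95% interval -0.93 to 2.00, edgeR adjusted p = 0.784). F13a1 was 10.3, 3.77 and 24.5 CPM in WT and 8.79, 18.5 and 29.0 in Panx1 KO. The highest WT library exceeded 2 of the 3 Panx1 KO libraries for both genes. The log2 fold change of F13a1 was 0.56 (SE 0.802, 95% interval -1.52 to 2.65, edgeR adjusted p = 0.839). For the C1q chains it was 0.49 (C1qa), 0.46 (C1qb) and 0.42 (C1qc), and for Adgre1, Cd163 and Csf1r it was 0.73, 0.34 and 0.18. The median of the 10 was 0.08 without Panx1 KO replicate 3, 0.11 without WT replicate 2 and 1.16 without WT replicate 3. Intervals of 9 of the 10 included a 2-fold higher level in Panx1 KO. White adipocyte genes had a median log2 fold change of -1.56 in this comparison, with 0 of 6 positive and 0 past the threshold, and lymphatic genes one of -0.42 with 1 of 6 positive. All 13 pan-myeloid genes were positive with a median of 0.58, and 9 of 10 monocyte and MHC class II genes with one of 0.56. Red cell genes had a median of -2.88 with 0 of 5 positive, and smooth muscle genes one of -0.24 with 0 of 6. Of the dendritic cell genes 3 were tested and 3 were positive (median 0.75), and of 4 mast cell genes tested 3 were positive (median 1.51). None of these genes passed, and the part of other cell types was not tested.

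Y198F libraries had lower means than their labelled controls for all 10 genes, but none passed the edgeR test, where 15% of the 16050 genes tested did. DESeq2 called 0 as well, and 0 of the 10 had an unadjusted p under 0.05, against 29.1% of all genes. The median log2 fold change was -0.60, against -0.0028 over all genes, of which 49.7% were positive. F13a1 was 2.86, 22.5 and 13.7 CPM in the controls and 2.77, 2.60 and 10.5 CPM in Y198F. Mrc1 was 1.85, 14.0 and 8.21 CPM in the controls and 1.41, 1.59 and 7.46 in Y198F. In both genes control replicate 1 lay within the range of the mutants, so the groups overlapped. The log2 fold change was -1.30 (SE 0.979, 95% interval -3.89 to 1.28, edgeR adjusted p = 0.470) for F13a1 and -1.20 (SE 1.01, 95% interval -3.80 to 1.39, edgeR adjusted p = 0.515) for Mrc1.

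Lyve1 was 16.5, 36.7 and 30.4 CPM in the Y198F controls and 3.15, 22.7 and 12.5 CPM in Y198F, and Mmrn1 was 17.6, 96.8 and 25.8 and 2.12, 11.0 and 13.9 CPM. The log2 fold change of Lyve1 was -1.13 (SE 0.768, 95% interval -3.18 to 0.92, edgeR adjusted p = 0.426). The C1q chains had smaller values, -0.34 (C1qa), -0.42 (C1qb) and -0.17 (C1qc), and Cd163, Cd68, Adgre1 and Csf1r had -0.91, -0.60, -0.60 and -0.45. None of the 10 had groups without overlap, which held for 34.2% of all genes. The median was -0.01, with 5 of 10 positive, without Y198F control replicate 2, and it was -0.25 without Y198F replicate 1, -0.34 without Y198F replicate 2, -1.05 without control replicate 1 and -1.56 without Y198F replicate 3. The direction also turned with the controls used. Against the 3 S205A controls of the 22 series, which share the series of all 3 Y198F libraries, 9 of 10 were positive with a median of 0.45 and 0 passed. The authors' deposited table for Y198F matched a contrast with the S205A controls, to within 0.000158 in log2 fold change, and listed 6 of the 10 as positive and none with an adjusted p under 0.05.

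Of all genes tested 15% passed in the Y198F comparison. Of the resident macrophage list, 1 of 13 tested genes was higher in Y198F (Stab1) and 1 lower (Maf, a transcription factor of resident macrophages). Of 10 monocyte and MHC class II genes 1 was higher, and of 11 genes for clearing dying cells 1 was lower. None of 12 pan-myeloid genes, 5 activation genes and 4 genes of colony-stimulating factors and their receptors passed. Of other cell types, fibroblast genes had a median log2 fold change of -1.04 with 1 of 6 positive, lymphatic genes one of -0.98 with 0 of 6, white adipocyte genes one of 1.25 with 6 of 6 and red cell genes one of 1.55 with 5 of 5, and none of them passed. Of 6 smooth muscle genes 2 passed and were higher in Y198F (median 0.37, 5 of 6 positive), against 15% of all genes. Of 6 endothelial genes (median 0.18) 1 passed and was higher, as was 1 of 4 large peritoneal macrophage genes tested (median 0.33). The part of these cell types in the Y198F values was not tested. Ly6c2 was 0.896, 1.29 and 1.04 CPM in the controls and 8.47, 5.51 and 4.05 CPM in Y198F, which is 2.47 higher on the log2 scale (SE 0.377, edgeR adjusted p = 0.00180). Maf was 43.3, 66.5 and 37.3 CPM in the controls and 27.4, 21.5 and 27.1 in Y198F, with -0.96 as its log2 fold change (SE 0.213, adjusted p = 0.0181). Neither pair of groups overlapped, as for 34.2% of all genes. Itgb3, an integrin that binds dying cells, had a log2 fold change of -0.59 (edgeR adjusted p = 0.0112) and Stab1 one of 0.55 (edgeR adjusted p = 0.00639). The 3 S205A controls of the 22 series had Ly6c2 at 1.66, 12 and 6.66 CPM, and with the library series as a term no gene of the whole table passed.

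S205A libraries and their controls overlapped for every one of the 10 genes. None of the 10 macrophage genes passed the edgeR test, nor did any gene of the 15709 tested (0%). DESeq2 called 0 of the 10, and 40 of all genes. None had an unadjusted p under 0.05, against 2.87% of all genes. The log2 fold change was positive for 9 and negative for C1qc, with a median of 0.41 against -0.01 over all genes, of which 46.9% were positive. Adgre1 was 0.778, 0.0588, 0.389 and 1.29 CPM in the 4 controls and 0.499, 2.23, 2.99 and 0.0645 CPM in the 4 mutants, and its log2 fold change was 1.18 (SE 1.02, 95% interval -1.08 to 3.44, edgeR adjusted p = 1.00). Csf1r was 3.42, 1.53, 4.94 and 6.25 CPM in the controls and 4.64, 13.6, 11.8 and 1.68 CPM in S205A, and its log2 fold change was 0.97 (SE 0.633, 95% interval -0.45 to 2.40, edgeR adjusted p = 1.00). Replicates 2 and 3 of S205A lay above all controls for both genes, and replicates 1 and 4 lay among them. All 6 fibroblast genes were positive in this comparison with a median log2 fold change of 1.40, and they summed to 991.8 to 1442 CPM in the controls and 1434 to 4197 CPM in S205A. Of 9 monocyte and MHC class II genes tested 7 were positive with a median of 0.97, and of 12 pan-myeloid genes 9 with one of 0.56. White adipocyte genes had a median of -0.54 with 0 of 6 positive. The part of these cell types in the S205A values was not tested.

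C1qb was 1.66, 2.71, 4.997 and 4.58 CPM in the S205A controls and 2.95, 10.2, 10.1 and 0.903 CPM in S205A, with the same 2 high mutants. Its log2 fold change was 0.79 (SE 0.681, 95% interval -0.74 to 2.32, edgeR adjusted p = 1.00), against 0.26 for C1qa and -0.13 for C1qc. Mrc1, Lyve1 and Cd68 had values of 0.61, 0.56 and 0.27, and those of F13a1 and Cd163 were 0.02 and 0.0026. No gene of the 10 had groups without overlap, which held for 1.81% of all genes. The exact two-sided permutation p was 0.4 or higher for each of the 10, where 4 against 4 allows 0.0286. Within the 6 libraries of the 22 series 10 of 10 were positive with a median of 0.78, and 0 passed. The median was 0.06, with 5 of 10 positive, without S205A replicate 3, 0.23 without S205A control replicate 2, 0.70 without S205A control replicate 4 and 0.72 without S205A replicate 4.

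For each of the 10 genes every Y308F library lay within the range of its controls. None of the 10 passed the edgeR test, nor did any of the 16037 genes tested (0%), DESeq2 called 0, and none of the 10 had an unadjusted p under 0.05, against 4.4% of all genes. The log2 fold change was negative for 9 and positive for Lyve1, with a median of -0.28 against -0.03 over all genes, of which 46% were positive. C1qc was 8.38, 11.3 and 1.60 CPM in the controls and 3.47, 3.34 and 4.58 CPM in Y308F, and its log2 fold change was -0.90 (SE 0.601, 95% interval -2.30 to 0.51, edgeR adjusted p = 0.940). Csf1r was 10.2, 18.5 and 3.14 CPM in the controls and 6.20, 5.03 and 8.35 in Y308F, and its log2 fold change was -0.69 (SE 0.568, 95% interval -2.03 to 0.65, edgeR adjusted p = 0.942). In both genes the 3 mutants lay between the low control replicate 3 and the 2 high controls.

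Lyve1 was 36.4, 57.6 and 14.3 CPM in the Y308F controls and 37.3, 32.6 and 53.7 CPM in Y308F, and its log2 fold change was 0.20 (SE 0.482, 95% interval -0.97 to 1.37, edgeR adjusted p = 0.985). C1qb and C1qa had values of -0.60 and -0.32, Cd68 and F13a1 -0.30 and -0.27, and Adgre1, Mrc1 and Cd163 -0.07, -0.04 and -0.03. None had groups without overlap, which held for 10.7% of all genes. The median was 0.26, with 7 of 10 positive, without Y308F control replicate 2, and -0.74, with 0 of 10 positive, without control replicate 3. It was -0.14 without control replicate 1, -0.08 without Y308F replicate 1, -0.18 without Y308F replicate 2 and -0.51 without Y308F replicate 3. All 13 pan-myeloid genes were negative with a median of -0.55 and 0 passed, and all 6 lymphatic genes were negative with a median of -0.39 and 0 passed. All 5 genes of mesothelium were negative with a median of -2.30, and 9 of 10 monocyte and MHC class II genes with one of -0.70, and 0 passed. Their part in the Y308F values was not tested.

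**Figure D5:**
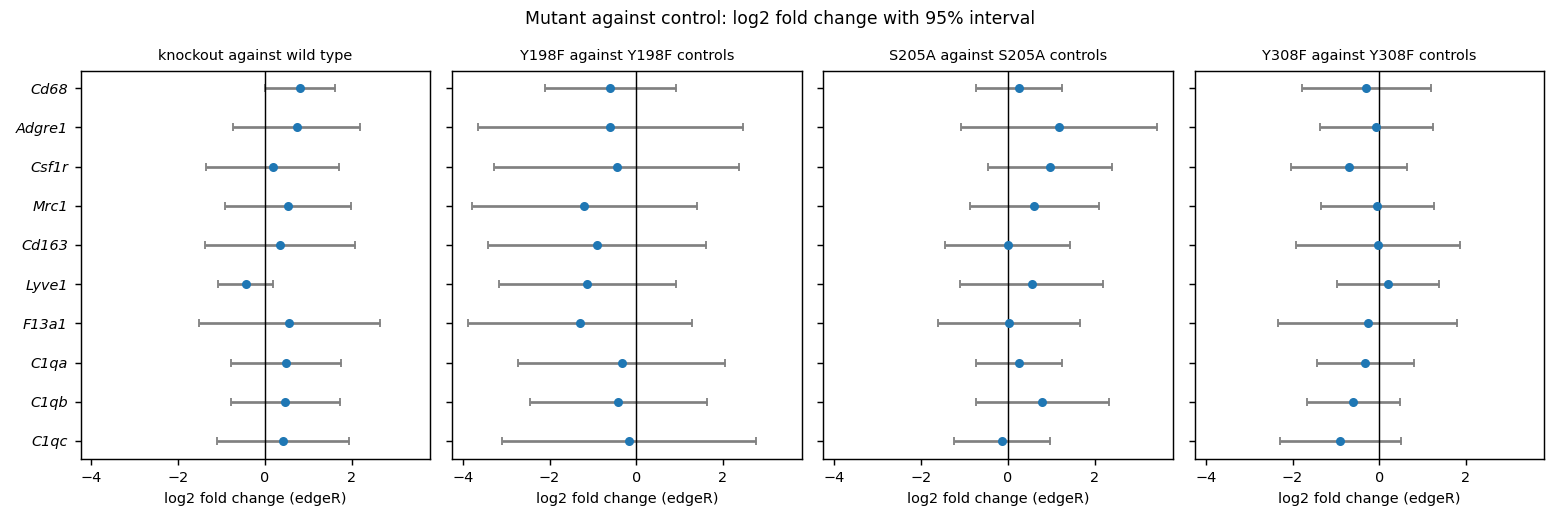
Log2 fold change (mutant minus control, horizontal axis) of each macrophage gene in the 4 comparisons, with 95% intervals from edgeR's quasi-likelihood fit; the vertical line marks no difference. Nearly all intervals span 0, the exception being Cd68 in the knockout, whose interval starts at 0.01.

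Whether 2 mutations differ in their effect was tested as an interaction term for each of the 6 pairs of comparisons. None of the 10 macrophage genes passed in any pair, and none had an unadjusted p under 0.05 in any. The lowest adjusted p among them was 0.290, for Panx1 KO against Y198F, where 11.6% of the 17347 genes tested passed. Of all genes 5.7% passed for Y198F against Y308F, 0.0116% for Panx1 KO against Y308F, 0.00562% for Panx1 KO against S205A, and 0% for S205A against Y198F and against Y308F. An unadjusted p under 0.05 was found for 26.4% of all genes for Panx1 KO against Y198F, 22.3% for Y198F against Y308F and 14.3% for Y198F against S205A. It was found for 4.16% for Panx1 KO against S205A, 3.49% for S205A against Y308F and 3.1% for Panx1 KO against Y308F. For the 5 pairs other than Panx1 KO against Y198F the lowest adjusted p of the 10 was between 0.476 and 1.00. The authors' deposited tables listed all 10 genes in each of the 4 comparisons, with no adjusted p under 0.05. For Cd68 in the knockout the authors' deposited table lists 0.81 as log2 fold change (SE 0.609), at an adjusted p of 0.785.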

How the data were processed

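Poly(A) RNA of mesenteric arteries was read as pairs of 150 bases. The authors aligned to GRCm39 with STAR 2.7.9a and counted with featureCounts (Rsubread 2.20.0), per the labels' protocols. The annotation release is not given in the sources used here. The deposited counts are whole numbers, not normalized. The deposited normalized signal equals those counts divided by 1 factor per library, and it was used only for a check. The authors' DESeq2 1.46.0 tables, per the labels' protocols, give deposited log2 fold changes with standard errors, a test score that was not used, and p-values with adjusted p-values.

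Here each comparison used edgeR 4.0.16 (R 4.3.3), the quasi-likelihood test on the deposited counts of its own groups with TMM scaling, filterByExpr and Benjamini-Hochberg adjustment over all genes tested, at 0.05. CPM used all libraries, log2 CPM a prior count of 2, and the floor was 3 counts, for counting error only. Alternatives were DESeq2 1.42.0, its size factors, no filter, all groups in 1 fit, the library series as a term, a replicate block, each library left out, other controls for Y198F, and the 22 series alone. The fit was tested on simulated data.

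As a check only for duplicate deposits of a library, replicate libraries of a group were compared with sampling noise, and none of the 30 pairs fell within it. Coordinates come from GENCODE vM39, which matched 56310 of the 57010 identifiers. Named genes were the 10, Panx1, genes of related lists past the threshold or else the most abundant, the most abundant of each other list and the 10 most alike; other genes were named after their values were seen. The result of 1 gene is not reported here. The genes and lists were chosen with earlier results of these data known.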

Additional observations from a re-analysis of the deposited data

Results flagged for a closer look

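Of 20 values examined for a library far from the rest (10 genes in the 2 groups with 4 libraries), 2 stood out. Chance gives about 1 in 20 for independent values, and these genes were correlated between libraries. Cd68 in S205A was 1.42, 1.55 and 1.64 CPM in 3 libraries and 3.77 CPM in replicate 3, a gap of 0.907 of the group's range. Mrc1 in the S205A controls was 3.83, 3.84 and 4.27 CPM in 3 libraries and 1.00 CPM in replicate 2, a gap of 0.863 of the range.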

How the results depend on the processing

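The count of macrophage genes past the threshold stayed at 0 under every alternative in the knockout, S205A and Y308F comparisons. In the Y198F comparison the replicate block gave 1, Lyve1 (log2 fold change -1.39, SE 0.304, edgeR adjusted p = 0.0384), and every other alternative gave 0, with libraries left out included. The labels do not say that replicate numbers pair samples, and deviations of same-numbered libraries correlated by -0.28 to 0.23 over the 4 comparisons. Of 520 recomputed values for single genes 467 kept their direction and side of the threshold and 52 changed sign, 38 of them on leaving out a library. The cause was not tested.

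With the library series as a term in the Y198F comparison the log2 fold change was 0.23 for Lyve1 and 0.080 for C1qc. Against the 3 S205A controls of the 22 series it was 1.71 for Adgre1, 0.20 for Mrc1, 0.98 for Lyve1, 0.13 for Cd163, 0.78 for Csf1r, 0.25 for C1qa, 0.54 for C1qb, 0.46 for C1qc and 0.44 for F13a1. The replicate block gave Cd163 -0.10 in S205A and 0.28 in Y308F. The 22 series alone gave C1qc 0.19 in S205A. With 1 library left out, signs changed for some genes. In the knockout comparison the range was -0.10 to 1.22 for Cd163 and -0.27 to 0.74 for Csf1r. In the Y198F comparison the range was -2.01 to 0.040 for Adgre1, -1.76 to 0.32 for Csf1r, -0.95 to 0.76 for C1qa, -1.35 to 0.013 for C1qb and -0.94 to 0.65 for C1qc. In the S205A comparison the range was -0.18 to 0.42 for Cd68, -0.55 to 0.35 for Cd163, -0.066 to 0.56 for C1qa, -0.51 to 0.16 for C1qc and -0.34 to 0.69 for F13a1. In the Y308F comparison the range was -0.78 to 0.22 for Cd68, -0.52 to 0.32 for Adgre1, -0.41 to 0.54 for Mrc1, -0.17 to 0.70 for Lyve1, -0.55 to 0.37 for Cd163, -0.72 to 0.00035 for C1qa and -0.77 to 0.42 for F13a1.

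Over all genes, the count past the threshold was 5 in the knockout by edgeR, 107 by DESeq2, 243 without a filter, 18 with the replicate block and 1 to 5 with a library left out. In Y198F it was 2411 by edgeR, 922 with all groups in 1 fit, 1760 with the replicate block, 0 with the series as a term or against the other controls, and 908 to 2128 with a library left out. In S205A it was 0 by edgeR and 40 by DESeq2, and in Y308F 0 by edgeR and 7 without a filter.

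Depth limits Adgre1 and Cd68 most, with 0 to 102 and 7 to 79 counts per library. Intervals of the log2 fold change include a 2-fold difference in at least 1 direction for every gene in every comparison.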
